A study of Mus musculus with 2 samples.

Results

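The barcodes described here are those of the control library that carried transcripts of liver and yolk sac secretory endoderm. A barcode, the tag of 1 droplet and nominally of 1 cell, was a member if it held at least 1 UMI (unique molecular identifier, the count of a captured transcript) of at least 2 of 6 genes: Apob, Hnf4a, Fgb, Fga, Fgg and Alb. At least 1 of those had to be Apob or Hnf4a, and the barcode had to hold 0 UMIs of Pdgfra, Sox2 and Cdh5. Of 18572 control barcodes, 108 met this gate, and 18464 did not. Members were thus chosen by the UMI counts of these 9 genes, whose values are given below as a description. Afp and Apoa1 were not part of the gate.

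The study compared mouse embryonic brain tissue from a control group and a neural tube defect (NTD) group with droplet 3' RNA sequencing, 1 library each. Control dams received normal saline. NTD dams were kept on a low folate diet and were injected intraperitoneally with methotrexate (MTX), a folate antagonist, at 1.5 mg/kg on gestational day 7.5, and closure of the neural tube was scored at E9.5 to E10.5. Of the embryos, the strain, the sex, the stage at collection and the number pooled per library were not given in the sources used here. With 1 library per group no difference between groups has a replicate check, so no p-value is given, and the treatment, the embryos and the library cannot be told apart. All intervals are 95% intervals and cover counting error only.

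The visceral endoderm of the yolk sac and the hepatocyte lineage of the liver are epithelia of separate origin that share a secretory programme. Both make alpha-fetoprotein, transferrin, apolipoproteins, transthyretin and fibrinogen under hepatocyte nuclear factors such as HNF4A. The yolk sac endoderm also takes up maternal protein through the endocytic receptors cubilin (Cubn) and megalin (Lrp2), with the cubilin partner amnionless (Amn) and the adaptor DAB2. The early liver bud is known for Prox1, Dlk1, the Onecut factors and the onset of albumin.

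Alb and Afp lie next to each other in the same orientation on chromosome 5, at 90460897 to 90476602 and at 90490737 to 90508907 (GRCm38, GENCODE). Cubn lies on the minus strand of chromosome 2, at 13276338 to 13491813. Windows of 250 bases upstream of these 3 genes are shown here (RefSeq, GRCm38.p6, 5′ to 3′ on the gene's strand). They stop short of the GENCODE gene starts given above. Alb is a gate gene, Afp the secreted protein gene kept out of the gate and Cubn the receptor gene of the yolk sac list.
Alb, chr5:90460620-90460869, + strand: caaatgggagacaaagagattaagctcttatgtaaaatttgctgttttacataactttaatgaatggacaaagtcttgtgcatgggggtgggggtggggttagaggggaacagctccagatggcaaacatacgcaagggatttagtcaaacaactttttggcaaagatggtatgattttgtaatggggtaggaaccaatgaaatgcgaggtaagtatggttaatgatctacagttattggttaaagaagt
Afp, chr5:90490464-90490713, + strand: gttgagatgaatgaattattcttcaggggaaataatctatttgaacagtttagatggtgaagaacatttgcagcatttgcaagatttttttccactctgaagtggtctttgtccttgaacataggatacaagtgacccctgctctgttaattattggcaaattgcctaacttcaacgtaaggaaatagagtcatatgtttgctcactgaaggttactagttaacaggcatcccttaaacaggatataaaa
Cubn, chr2:13491877-13492126, - strand: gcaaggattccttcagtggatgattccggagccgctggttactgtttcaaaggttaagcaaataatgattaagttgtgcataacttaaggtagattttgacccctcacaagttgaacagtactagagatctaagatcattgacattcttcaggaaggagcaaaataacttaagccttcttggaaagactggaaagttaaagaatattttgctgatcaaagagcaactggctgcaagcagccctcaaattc

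Members made up 0.582% of control barcodes (interval 0.477 to 0.702%). The same gate found 1 of 19056 NTD barcodes, 0.00525% (interval 0.000133 to 0.0292%). The share was 0.576 percentage points lower in the NTD library (difference -0.576, interval -0.696 to -0.474), or 111-fold higher in control over NTD (interval 19.5 to 4417). The single NTD barcode held 1 Apob, 1 Fga and 7 Afp UMIs among 2349 and none of the 10 yolk sac list genes. The NTD library was slightly deeper, with a median of 2456 UMIs per barcode against 2234 in control. RNA of these genes outside the gate moved with the same contrast: Afp stood at 202 CPM (counts scaled to 1e6 of the summed UMIs) in the other control barcodes and at 3.39 CPM in the whole NTD library, and Apoa1 at 81.3 and 1.94 CPM. The part of this free or unselected RNA in the member count was not tested. The libraries shared 105 barcode sequences, and 0 of them were members.

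The gate was met mostly at its lowest setting. Exactly 2 gate genes were detected in 75 members, 3 in 21, and 4 or 5 in 12. Apob, the structural protein of lipoprotein particles, was present in 101 members and Hnf4a, the nuclear receptor that drives hepatic genes, in 35. The fibrinogen chains Fgg, Fgb and Fga were present in 43, 42 and 26 members, and Alb in 16. The commonest pairs were Apob with Fgg (21 members), Apob with Fgb (20) and Apob with Fga (14). Most of these were single UMIs: 74 of the 101 members with Apob had exactly 1. Members held 38.4% of all Hnf4a UMIs of the control library and 16.4% of its Apob UMIs, against 10.7% for Afp and 4.10% for Apoa1. The median member had 2852.5 UMIs (lowest 1032, highest 10520), against 2231 for the other control barcodes.

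Just outside the threshold were 519 barcodes with Apob or Hnf4a as the only gate gene, of which 15 carried at least 3 of 10 yolk sac list genes, and 31 with at least 2 gate genes but neither Apob nor Hnf4a, of which 1 did. A further 53 barcodes met the positive rule but held Pdgfra, Sox2 or Cdh5. Those 53 were deeper, with a median of 5200 UMIs, 21 of them carried at least 3 yolk sac list genes, and 20 (37.7%) were called doublets. Among the members, 24 (22.2%) were called doublets, against 16.4% of all control barcodes. These calls used an expected rate of 0.149. At a rate of 0.15 the shares were 33.3% of members, 34.6% of all control barcodes and 62.3% of the removed barcodes. The order of members and all control barcodes thus turned with the rate. Yolk sac list genes reached 3 in 39.6% of the removed barcodes and in 46.3% of members.

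The members were not one kind of barcode. The 10 yolk sac list genes are Cubn, Amn, Lrp2, Dab2, S100g, Rhox5, Slc13a4, Spink1, Slc39a4 and Pdzk1. Of the 108 members, 40 held none of them, 13 held 1, 5 held 2, and 50 held 3 to 8. Among the 18464 other control barcodes, 126 held 3 or more. Members with more gate genes held yolk sac genes more often: 25 of the 75 with 2 gate genes reached 3, as did 14 of the 21 with 3 and 11 of the 12 with 4 or 5. The depth moved in the same direction, with medians of 2591, 3942 and 4146.5 UMIs, and its part was not tested.

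**Figure D1:**
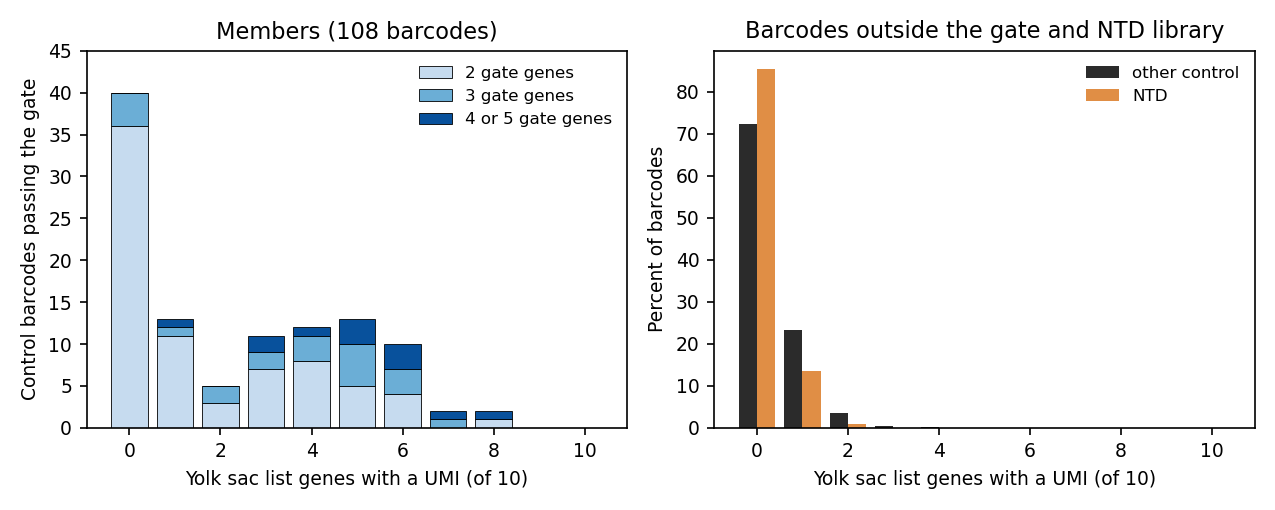
Number of the 10 yolk sac list genes with a UMI in each barcode (x axis). Left, count of member barcodes, coloured by the number of gate genes detected; right, percent of other control barcodes and of NTD barcodes. The members fall into 40 barcodes at 0 and a broad group of 50 at 3 to 8, whereas 126 of 18464 other control barcodes reach 3.

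A second gene, Reln, divided the 58 members with fewer than 3 yolk sac list genes. Reln encodes the secreted glycoprotein reelin, known both from Cajal-Retzius neurons and from fetal liver, where it marks stellate cells and endothelium. Its UMIs per barcode ran from 2 to 14 with a median of 8 in 15 members, and were 0 or 1 in the other 93. None of the 50 members with at least 3 yolk sac list genes held more than 1 Reln UMI. The members are therefore described as 3 groups: 50 yolk sac-gene members (at least 3 of the 10 genes), 15 Reln members (at least 2 Reln UMIs, fewer than 3 yolk sac list genes) and 43 remaining members. Both thresholds were set after these values were seen, so the groups are a description and Reln and the 10 genes are no finding between them.

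**Figure D2:**
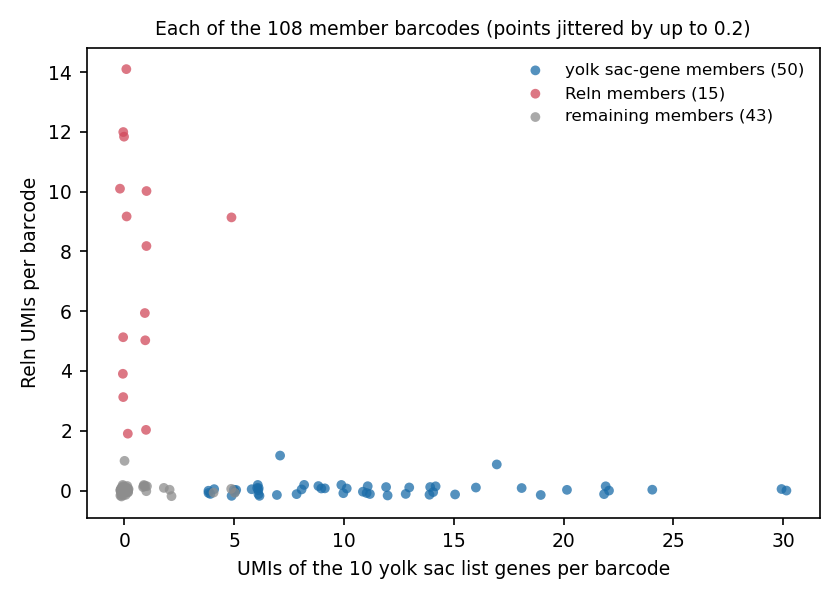
Each of the 108 members by its UMIs of the 10 yolk sac list genes (x axis) and its Reln UMIs (y axis), coloured by group. The 50 yolk sac-gene members lie along the x axis with 4 to 30 UMIs and at most 1 Reln UMI. The 15 Reln members lie on or near the y axis with 0 to 5 UMIs of the 10 genes, and the 43 remaining members sit near the origin.

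In the yolk sac-gene members the uptake genes that chose them had these values. Cubn, the cubilin receptor, was detected in 47 of 50 with 0 to 19 UMIs (median 4), 1215 CPM in their sum against 12.2 CPM in the other control barcodes and 2.04 CPM in NTD. The sum of the other genes was spread over many members: Dab2 was in 39 of 50 (535 CPM), Lrp2 in 37 (488 CPM), Rhox5, an X-linked homeobox gene of extraembryonic tissue, in 29 (218 CPM), S100g, a calcium-binding protein, in 26 (203 CPM) and Amn in 20 (135 CPM). The least detected were Pdzk1, in 8 of 50, and Slc39a4, in 1. Among genes that did not choose the group, Folr1, the folate receptor known in yolk sac endoderm, was detected in 32 of 50 (306 CPM), in 0 of 15 Reln members and in 1 of 43 remaining members, with 5.62 CPM in the other control barcodes and 3.51 CPM in NTD. Nrk, an X-linked kinase, stood at 2182 CPM, against 52.0 CPM elsewhere in control. Krt18, a simple epithelial keratin, stood at 239 CPM in 33 of 50, and Cdh1, epithelial cadherin, at 125 CPM in 18.

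The same barcodes held transcripts of secreted proteins. Afp was detected in all 50, with 2 to 55 UMIs per barcode (median 19) and 5558 CPM in the sum. All 50 lay within the range of the other control barcodes, of which 6732 held Afp and the highest had 95 UMIs, but the sum was above their 202 CPM. Trf, the iron carrier transferrin, stood at 1008 CPM in 46 of 50, Ttr, the thyroxine and retinol-binding protein carrier transthyretin, at 1106 CPM in 48, Apoa1 at 784 CPM in 42, Rbp4, the retinol carrier, at 530 CPM in 41 and Apoe at 473 CPM in 34. Other secreted proteins gave few UMIs: Alb gave 2 in the sum of all 50 (10.4 CPM, against 4.23 CPM in the other control barcodes). Ahsg and Hpx gave 1 UMI each, here and in the Reln members. Apoh, Apoc3 and C3 gave 0 in both groups, which allows up to 15.6 CPM in the yolk sac-gene members. That lies above their 0.755, 0.516 and 0.596 CPM in the other control barcodes, so these zeros show no difference. Of the factors, Nr1h4, the bile acid receptor, gave 18 UMIs in 13 yolk sac-gene members and 0 in the Reln and remaining members, where 0 allows up to 50.1 and 23.8 CPM (3 counts of each sum). Hnf4a was in 25 of 50. Abcc2, an apical export pump of bile and conjugates, stood at 312 CPM in 27 of 50.

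The 15 Reln members carried genes of the liver bud. Dlk1, a transmembrane Notch-family ligand of hepatoblasts, was detected in all 15 with 1 to 20 UMIs (median 7) and 2136 CPM, against 270 CPM in the yolk sac-gene members, a 7.91-fold difference (interval 5.69 to 11.1). Prox1, a homeobox factor of the hepatic lineage, was in 12 of 15 at 267 CPM and in 3 of 50 at 20.8 CPM (12.9-fold, interval 4.15 to 52.8). Alb, a gate gene and so a description only, was in 8 of 15 at 200.3 CPM. Onecut2 stood at 401 CPM (8.57-fold, interval 3.84 to 21.0) and Nr5a2, a nuclear receptor of liver and pancreas, at 300.4 CPM (9.64-fold, interval 3.67 to 29.7). Hhex, a factor of the early liver bud, had 0 UMIs in the Reln members. That allows up to 50.1 CPM, against 3.57 CPM in the other control barcodes.

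Several plasma and metabolic genes of the liver were higher in the Reln members too. Serpinf2, the plasmin inhibitor, was in 13 of 15 Reln members at 317 CPM and in 7 of 50 at 41.6 CPM (7.63-fold, interval 3.19 to 20.2). C8a, a complement component, gave 9 UMIs in 6 Reln members and 0 in the yolk sac-gene members, where 0 allows up to 15.6 CPM. Serpina6, corticosteroid-binding globulin, gave 8 UMIs in 5 against 0. Gulo, the last enzyme of vitamin C synthesis, gave 12 UMIs in 7 against 0, and A1cf, a cofactor of Apob mRNA editing, stood at 234 CPM against 46.7 CPM. Folr1 had 0 UMIs in the Reln members, and Apoa1 stood at 117 CPM, close to the 81.3 CPM of the other control barcodes. The group's definition limits the yolk sac list genes: Dab2 gave 6 UMIs (100.1 CPM, against 62.2 CPM in the other control barcodes), Amn 2 and Cubn 0. Afp was in all 15, with 1 to 20 UMIs (median 4) and 1485 CPM.

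Reln was also found outside the members: 389 other control barcodes held at least 2 UMIs, the highest 25, and Reln stood at 151 CPM in barcodes gated for the erythroid factors Klf1 or Gata1. In the Reln members the stellate or septum mesenchyme list gave 131 UMIs in 5 of its 8 genes, 111 of them Reln. Alcam gave 16 UMIs (267 CPM, against 168 CPM in the other control barcodes). Des and Lhx2 gave 1 UMI each, where 3 counts are 50.1 CPM, and the gate itself removed Pdgfra. The part of stellate cells in this group was not tested. The neuron list summed to 818 CPM there, below the 1527 CPM of the other control barcodes.

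**Figure D3:**
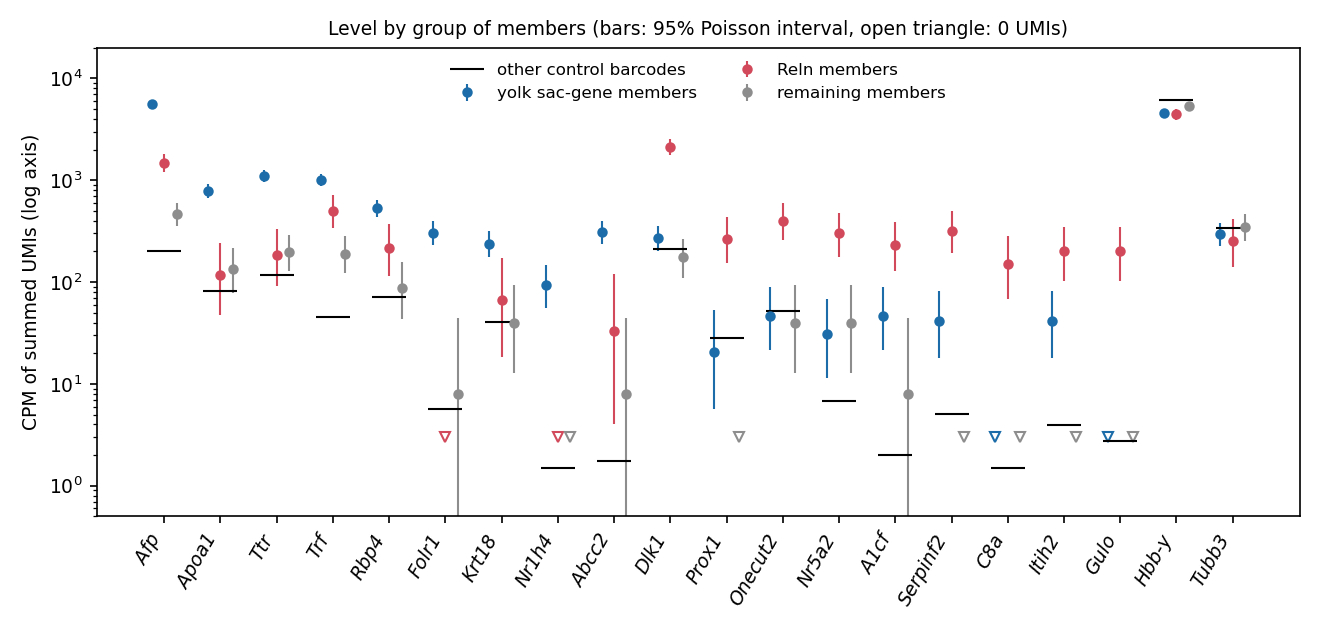
Summed level (CPM, log axis) of 20 genes in the 3 groups of members, with 95% Poisson intervals that cover counting error only; open triangles mark 0 UMIs and black dashes the 18464 other control barcodes. Cubn and Reln are left out because they set the groups. Afp, Ttr, Folr1, Nr1h4 and Abcc2 are highest in the yolk sac-gene members, Dlk1, Prox1, Onecut2, Nr5a2 and C8a in the Reln members, and Hbb-y lies between 4439 and 6126 CPM in all.

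The 43 remaining members lay closer to the other control barcodes. Of these, 40 had exactly 2 gate genes, and 36 had exactly 2 gate UMIs. The plasma protein lists, which hold no gate gene, summed to 896 CPM there, against 584 CPM in the other control barcodes, 3188 CPM in the Reln members and 5012 CPM in the yolk sac-gene members. The median number of plasma list genes per barcode was 1 in the remaining members and 1 in the other control barcodes, against 9 in both other groups. Afp was in 17 of 43 (468 CPM) and Dlk1 in 13 (175 CPM). Trf was 4.18-fold higher than in the other control barcodes (interval 2.67 to 6.23), with 24 UMIs in 10 barcodes, and Cubn gave 9 UMIs in 3. The neuron list stood at 2142 CPM (interval 1894 to 2413) against 1527 CPM, and the surface epithelium list at 190 CPM against 95.5 CPM. Their median depth was 2160 UMIs, against 3476.5 in the yolk sac-gene members and 2992 in the Reln members. Single barcodes dominated their highest genes: all 28 Kctd16 UMIs and all 5 Slc4a10 UMIs came from 1 barcode. The label of liver or yolk sac-like cells was therefore not shown for each of the 108 members. Called doublets were 12 of 50, 4 of 15 and 8 of 43, so that 38, 11 and 35 members were left without them.

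Over all 108 members, 2625 of 19003 measured genes (13.8%) were at least 2-fold higher than in the other control barcodes and 4536 (23.9%) at least 2-fold lower, with measured meaning at least 20 UMIs over both sums. The sum of the members is small, so many of these folds rest on a few UMIs. The lower interval bound was at least 2 for 679 genes (3.57%) and the upper bound at most 0.5 for 25 (0.132%). The median fold of all measured genes was 0.918.

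Against that background, 39 of the 46 measured genes of the plasma protein lists were at least 2-fold higher and 4 lower, with a median fold of 5.51, and 27 kept a lower bound of at least 2. All 13 measured carrier proteins were higher, 8 by the bound, as with Trf (14.4-fold, interval 12.6 to 16.4), Ttr (5.64-fold, interval 4.95 to 6.41) and Rbp4 (4.68-fold, interval 3.89 to 5.59). Of 13 coagulation genes, 12 were higher and 8 by the bound, with F2, prothrombin, at 19.01-fold (interval 10.5 to 32.2) and Kng1, kininogen, at 16.2-fold (interval 10.3 to 24.6). Of 11 apolipoprotein and lipoprotein genes, 8 were higher, 7 by the bound, including Apoc2, the cofactor of lipoprotein lipase (6.60-fold, interval 4.82 to 8.85), Apoa4 (5.39-fold, interval 3.42 to 8.09) and Apoe (3.55-fold, interval 2.92 to 4.27). Of 9 complement genes, 6 were higher, 4 by the bound. C3 and C4b had 0 UMIs in members, which allows up to 7.93 CPM. Their 0.596 and 0.0596 CPM in the other control barcodes lie below that, so these zeros show no difference.

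Of 15 transcription factors of the hepatocyte lineage, 11 were at least 2-fold higher and 8 by the bound. Nr1h4 was 72.6-fold higher (interval 38.5 to 133), Foxa3, a forkhead factor of endoderm, 26.6-fold (interval 13.03 to 49.98) and Creb3l3, a liver membrane-bound factor, 18.1-fold (interval 9.55 to 31.7). The antisense gene Hnf4aos overlaps Hnf4a, and Gm43449 overlaps Afp on the other strand. Whether the counting used strand is not given, so reads of such pairs cannot be told apart. Of 12 hepatoblast and liver bud genes, 7 were higher, 4 by the bound.

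Genes of the later liver were mixed. Of the 22 genes of mature hepatocyte metabolism, 10 had 0 UMIs in members, as did 16179 of all 32285 genes. Among the 10 were Cps1 of the urea cycle, the gluconeogenic enzymes G6pc and Pck1, and Cyp7a1 of bile acid synthesis. The other control barcodes held 2 Cps1 UMIs and 0 of G6pc, Pck1 and Cyp7a1. Such levels lie below the 7.93 CPM that 0 allows in members, so these zeros show no difference. Of the 11 measured genes of this list, 6 were higher and 1 lower, and 4 were higher by the bound. Ass1, the urea cycle enzyme that makes argininosuccinate, stood at 58.1 CPM against 6.99 CPM. Abcb11, the bile salt export pump, gave 8 UMIs against 10 in all other control barcodes.

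Gate genes, haemoglobin and mitochondrial genes and predicted gene models such as Gm43449 were left out of the ranking by ratio. The highest ratios, at 50 CPM or more, were then those of Acnat1, a peroxisomal acyl-CoA amino acid transferase (103-fold, interval 59.8 to 175), Tmprss11f (101-fold, interval 52.6 to 191) and Abcc2 (95.3-fold, interval 67.8 to 133). Then came Triml2, Kng2, Hnf4aos and Cubn (52.6-fold, interval 45.1 to 61.1). The list went on with Clic5, the membrane protease Tmprss2, the hexokinase Hkdc1, the lysosomal channel Mcoln2, the prolactin receptor Prlr, the inhibitor Tfpi2, the FGF co-receptor Klb, Arhgef6, Cbx7, Pde6c, Maob, A1cf, Aass, Lipc, Marc1, Eps8l2, Dio3os and Folr1 (28.2-fold, interval 21.0 to 37.4). For 24 of these 25 the level was higher in the yolk sac-gene members than in the other 58 members, A1cf being the exception. Prlr, Dio3os and Tmprss11f had 0 UMIs in those 58. Cubn helped set the yolk sac-gene group, and the 25 were ranked on a member sum in which that group held 192520 of 378498 UMIs. The share over all genes for this contrast is not given, so the count of 24 is a description only.

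At the other end of the same ranking, Egfem1 stood at 0.12 of its level in the other control barcodes (21.1 against 171 CPM), Fli1, a factor of endothelium and blood, at 0.25, Nes, the neural progenitor filament nestin, at 0.25 (5 UMIs, interval 0.0825 to 0.594) and Ptprz1, a neural receptor phosphatase, at 0.26. Gpc5, Sgcz, Lrp1b, Lama2, Hpse2 and Creb5 lay between 0.18 and 0.25.

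Folate genes were examined because the NTD model rests on a folate antagonist. Of 26 measured folate and one-carbon genes, 8 were at least 2-fold higher in members and 3 lower, with a median fold of 1.26, and 3 were higher by the bound. Folr1 was the clearest, at 158.5 CPM against 5.62 CPM. Ftcd, a liver enzyme that passes formimino groups from histidine to folate, gave 7 UMIs (28.2-fold, interval 10.5 to 64.9), 4 of them in Reln members. Shmt1, cytosolic serine hydroxymethyltransferase, was 2.96-fold higher (interval 2.08 to 4.10). Slc19a1, the reduced folate carrier, was 1.50-fold higher with an interval of 0.603 to 3.12. Of 11 AlkB and DNA N6-methyladenine genes none was 2-fold higher and 1 was lower. Alkbh1 stood at 174 CPM in members and 185 CPM in the other control barcodes.

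Few genes of shared cell programmes passed 2-fold. Of 15 cholesterol synthesis genes 0 were 2-fold higher and 0 lower, and of 19 cell cycle genes 1 was higher and 1 lower. Markers of other cell types gave these values. The neuron list summed to 1289 CPM in members and 1527 CPM in the other control barcodes, with 0 of 10 genes past 2-fold either way, and ran from 0 to 6860 CPM per member (median 742). The erythroid list summed to 10137 CPM against 12918 CPM, with 0 of 14 genes higher and 2 lower, and was above 0 in every member. The mesenchyme list summed to 444 CPM against 781 CPM. All 8 trophoblast genes had 0 UMIs in members, but only 1 of them was measured. Their sum in the other control barcodes was 5.50 CPM, below the 7.93 CPM that 0 allows in members, so these zeros show no difference. The macrophage list summed to 103 CPM in members and 39.5 CPM in the other control barcodes, with 2 of 10 genes higher and 4 lower. It held 1 gene higher by the bound, Csf1r, at 58.1 CPM against 3.65 CPM. Of the 22 Csf1r UMIs, 20 were in yolk sac-gene members. Cx3cr1 and C1qb had UMIs in each group of members, and C1qa, Aif1 and Timd4 had 0. A count of 0 allows up to 7.93 CPM, above the 2.44 CPM of C1qa and 1.15 CPM of Aif1 in the other control barcodes. The part of RNA from other cells in the member profiles was not tested.

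The share of barcodes with a UMI was compared between gates. Members were set beside 6 other gates of the control library, each barcode thinned to 1000 UMIs. Hbb-y, an embryonic globin, was then in 99.1% of members and in 96.2 to 98.7% of the other gates. The erythroid gate, at 98.4%, lay within that range, so Hbb-y gives no scale for free RNA. Members were chosen by endoderm genes, and the part of free RNA in the shares below was not tested. Cubn was in 32.4% of members (interval 23.7 to 42.1%), with 0.441 to 3.80% elsewhere. Afp was in 69.4% (interval 59.8 to 77.9%), with 13.4 to 20.6% elsewhere. Before thinning these shares were 46.3% for Cubn and 75.9% for Afp. Trf was in 38.0%, with 3.08 to 5.43% elsewhere, and Folr1 in 12.04%, with 0 to 1.09% elsewhere. In the 50 yolk sac-gene members the thinned shares were 100% for Afp, 86.0% for Nrk, 66.0% for Cubn and 56.0% for Trf.

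**Figure D4:**
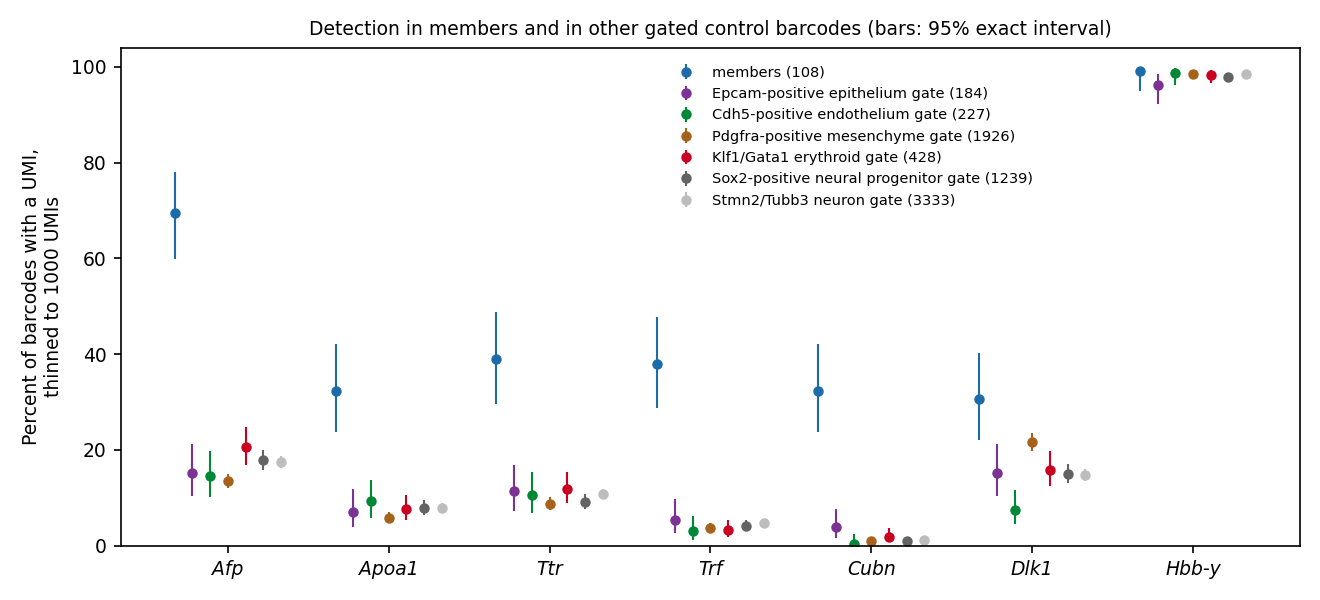
Percent of barcodes with a UMI of 7 genes after thinning each to 1000 UMIs, with exact 95% intervals, in the 108 members and 6 other gates of the control library (number of barcodes in the key). Afp, Apoa1, Ttr, Trf and Cubn are higher in members than in all 6 gates, Dlk1 overlaps the mesenchyme gate in its interval, and Hbb-y is near 100% in all.

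Levels were also set against Afp. Per 100 Afp UMIs, the yolk sac-gene members held 14.1 Apoa1, 7.57 Apoa2, 19.9 Ttr and 9.53 Rbp4 UMIs, while the other control barcodes held 40.2, 29.9, 57.6 and 35.1. Trf was nearer, with 18.1 against 22.5, and Folr1 was higher, with 5.51 against 2.78. Among genes that chose the members or the group, Apob (9.91 against 8.14) and Lrp2 (8.79 against 8.61) were close. Of the same kind, Cubn and Hnf4a were higher, and Fgb, Fgg and Alb lower. What these proportions owe to free RNA was not tested.

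The gate missed barcodes with the same genes. Of 165 control barcodes with at least 5 Afp UMIs, 55 were members (46 yolk sac-gene, 6 Reln and 3 remaining), 25 were removed for Pdgfra, Sox2 or Cdh5, and the others did not meet the positive rule. The NTD library held 3 barcodes with at least 5 Afp UMIs, the highest with 9, and 0 with 10 or more, against 109 in control. Barcodes with at least 3 yolk sac list genes numbered 176 in control, 50 of them members, and 9 in NTD, where no barcode had more than 2 Cubn UMIs against a highest of 31 in control.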

How the data were processed

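Droplet 3' RNA was measured in 1 control and 1 NTD library. The authors deposited raw counts of UMIs for each gene in each barcode. Per the file headers they came from Cell Ranger 7.0.1. STAR and mm10 are named per the submitters' processing notes. Annotation, intron setting, strand use and cell calling: not given in the sources used here. Control had 50741121 UMIs over 18572 barcodes, and NTD had 55524355 over 19056.

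No barcode was removed. Counts were summed over members and over other control barcodes and scaled to CPM, with exact Poisson intervals. Folds are ratios of CPM with no pseudocount and with exact conditional binomial intervals. Shares have Clopper-Pearson intervals and their difference a Newcombe interval, all at 95%. A gene was measured with at least 20 UMIs over both sums and called at 2-fold. Each group had 1 library, so no test was made. The fold calculation was tested on simulated data.

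Doublets were called but kept, with Scrublet (scanpy 1.11.5) at an expected rate of 0.8% per 1000 barcodes. The call depended on that rate: in control it came to 0.149 and gave 3042, against 0 at 0.05 and 6429 at 0.15 (36 members). The rate was settled after these were seen. NTD gave 2399. TMM factors came from edgeR 4.0.16.

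The members and the 32 gene lists were chosen with earlier results of these data known. Genes named are the gate genes, Afp, Apoa1, the 25 highest and 10 lowest ratios at 50 CPM or more, and the leading or absent genes of each list; a few items are not reported here. Those named between the 3 groups of members were chosen after their values were seen.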

Additional observations from a re-analysis of the deposited data

How the results depend on the processing

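The control share of 0.582% became 0.178% with 3 gate genes required, 0.194% when each barcode was thinned to 1000 UMIs before the gate, 0.867% with no gene required absent and 0.269% with at least 3 yolk sac list genes as well. The last was chosen after seeing the data. The NTD share became 0 with 3 gate genes, after thinning and with the yolk sac genes (0 of 19056 allows up to 0.0157%). The difference was -0.178, -0.194, -0.862 and -0.269 percentage points in the same order of settings, and so kept its sign. Asking the lower interval bound to reach 2, also chosen after seeing the data, lowered the number of higher genes from 2625 to 679. The plasma count stayed between 27 and 46 and the yolk sac count between 9 and 10 over all settings run. It was 10 of 10 measured yolk sac genes as reported, against 13.8% of all measured genes. The plasma count was 27 after thinning, where 2504 of 16513 genes were higher, and by the bound, where 679 of 19003 were. With no filter on low counts it was 46, where 3170 of 25814 genes were higher. These counts do not all share a denominator. TMM scaling lowered all members' ratios by a factor of 1.07. No paired analysis was possible because each group has 1 library, which also leaves no replicate to leave out. The small member sum of 378498 UMIs limits precision: 3 counts in it are 7.93 CPM.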
